A study of Drosophila melanogaster with 2 samples.

Results

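The 8 Sox family genes of Drosophila melanogaster, D, SoxN, Sox21a, Sox21b, Sox14, Sox102F, Sox100B and Sox15, were surveyed for occupancy by CLAMP, the zinc-finger protein made from the gene Clamp, or CG1832. A peak was assigned to a Sox gene when its summit lay inside the gene or within 20 kb of it, and this rule took 18 of the 3077 peaks of the optimal set. CLAMP occupancy had been measured by ChIP-seq with an antibody against GFP. The chromatin came from whole embryos aged 0 to 24 h, males and females pooled, of the transgenic strain CG1832-GFP, which stably makes CG1832 with GFP at its C-terminus, and it was sonicated to fragments of 200 to 800 bp. The 2 biological replicates, numbered 4 and 2, formed 1 group, and no second genotype, stage or untagged line was analysed here. In whole embryos, a site occupied in few cells and a site occupied weakly in many cannot be told apart.

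Sox proteins are transcription factors that bend DNA through an HMG box. In flies they fall into group B (D, SoxN, Sox21a and Sox21b), which is best known for early patterning and the specification of the nervous system, and the groups C (Sox14), D (Sox102F), E (Sox100B) and F (Sox15), with 1 gene each. CLAMP is known for binding GA repeats and for helping to recruit the dosage compensation complex to the male X, and it also occupies many promoters outside the X.

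The sequences around 6 summits are shown because they hold the strongest peak of each group B gene and the longest GA runs found near the other Sox genes. They were read from the Release 6 genome (dm6) on the plus strand, and are written in the 5′ to 3′ direction. Capitals mark uninterrupted alternations of G and A, or of C and T, of at least 6 bp. The stretch at D has 30 bases because it lies in a UTR, and the other stretches span 100 bp on each side of the summit.
D 5′ UTR summit, chr3L:14177687-14177716: ctggGAGAGAGctgcgccgtcgtcgcgctc
SoxN upstream summit, chr2L:8825302-8825502: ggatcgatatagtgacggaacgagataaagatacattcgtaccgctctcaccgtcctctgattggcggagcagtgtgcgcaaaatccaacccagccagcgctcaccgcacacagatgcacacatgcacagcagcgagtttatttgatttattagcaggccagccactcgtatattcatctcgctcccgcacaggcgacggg
Sox21b upstream summit, chr3L:14131724-14131924: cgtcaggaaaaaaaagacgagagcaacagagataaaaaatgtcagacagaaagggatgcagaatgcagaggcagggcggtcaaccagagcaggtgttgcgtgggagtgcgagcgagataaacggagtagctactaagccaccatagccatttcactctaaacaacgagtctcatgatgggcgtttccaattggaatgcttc
Sox21a upstream summit, chr3L:14108220-14108420: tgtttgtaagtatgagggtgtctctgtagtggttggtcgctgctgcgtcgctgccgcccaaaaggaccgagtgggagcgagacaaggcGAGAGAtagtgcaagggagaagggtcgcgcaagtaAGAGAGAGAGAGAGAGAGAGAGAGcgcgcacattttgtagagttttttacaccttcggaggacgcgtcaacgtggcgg
Sox102F intron summit, chr4:807942-808142: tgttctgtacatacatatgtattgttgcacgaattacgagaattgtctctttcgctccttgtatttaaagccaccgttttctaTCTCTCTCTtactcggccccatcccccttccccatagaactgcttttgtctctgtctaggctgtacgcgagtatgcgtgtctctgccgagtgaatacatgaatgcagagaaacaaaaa
dco intron summit, upstream of Sox100B, chr3R:31059575-31059775: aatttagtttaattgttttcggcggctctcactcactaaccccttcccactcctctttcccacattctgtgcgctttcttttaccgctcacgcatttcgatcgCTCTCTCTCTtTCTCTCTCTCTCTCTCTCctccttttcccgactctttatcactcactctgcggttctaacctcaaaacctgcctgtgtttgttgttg

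The capitals show how differently these summits are built. The upstream summit of Sox21a held a GA run of 24 bp beginning 23 bp from the summit, and only 2.24% of all optimal peaks had a run as long within 100 bp. The dco intron summit held a run of 18 bp, reached by 6.63% of all optimal peaks, and the Sox102F intron summit a run of 9 bp, reached by 26.8%. At D the longest run had 7 bp, and at the upstream summits of SoxN and Sox21b no run reached 6 bp.

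All 8 Sox genes had at least 1 CLAMP peak in the gene or within 20 kb, against 57.5% of the 13945 protein-coding genes. A summit lay within 1 kb of a transcription start site (TSS) of 6 of the 8 genes, D, SoxN, Sox21a, Sox21b, Sox14 and Sox102F, against 10.2% of all protein-coding genes. The Sox genes were longer than others, with a median of 8.70 kb against 2.17 kb, so their windows were wider too. The strongest peak of each Sox gene had a median signal of 1284, with a range of 333 to 4878, against a median of 414 over the 8022 coding genes that had a peak in the window. Signal is the value the authors' caller gave each peak, and it was compared only within a list. The 18 peaks lay in 384 kb of windows, a density of 46.8 per Mb (27.8 to 74.0, exact 95% Poisson bounds), against 23.0 per Mb (22.2 to 23.8) over the chromosomes as a whole. The latter value covers all sequence of the chromosomes, and the density over windows of other genes was not computed. Intervals here cover counting error only, and peaks of neighbouring genes are not independent. With windows of 50 kb the density was 25.4 per Mb.

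**Figure D1:**
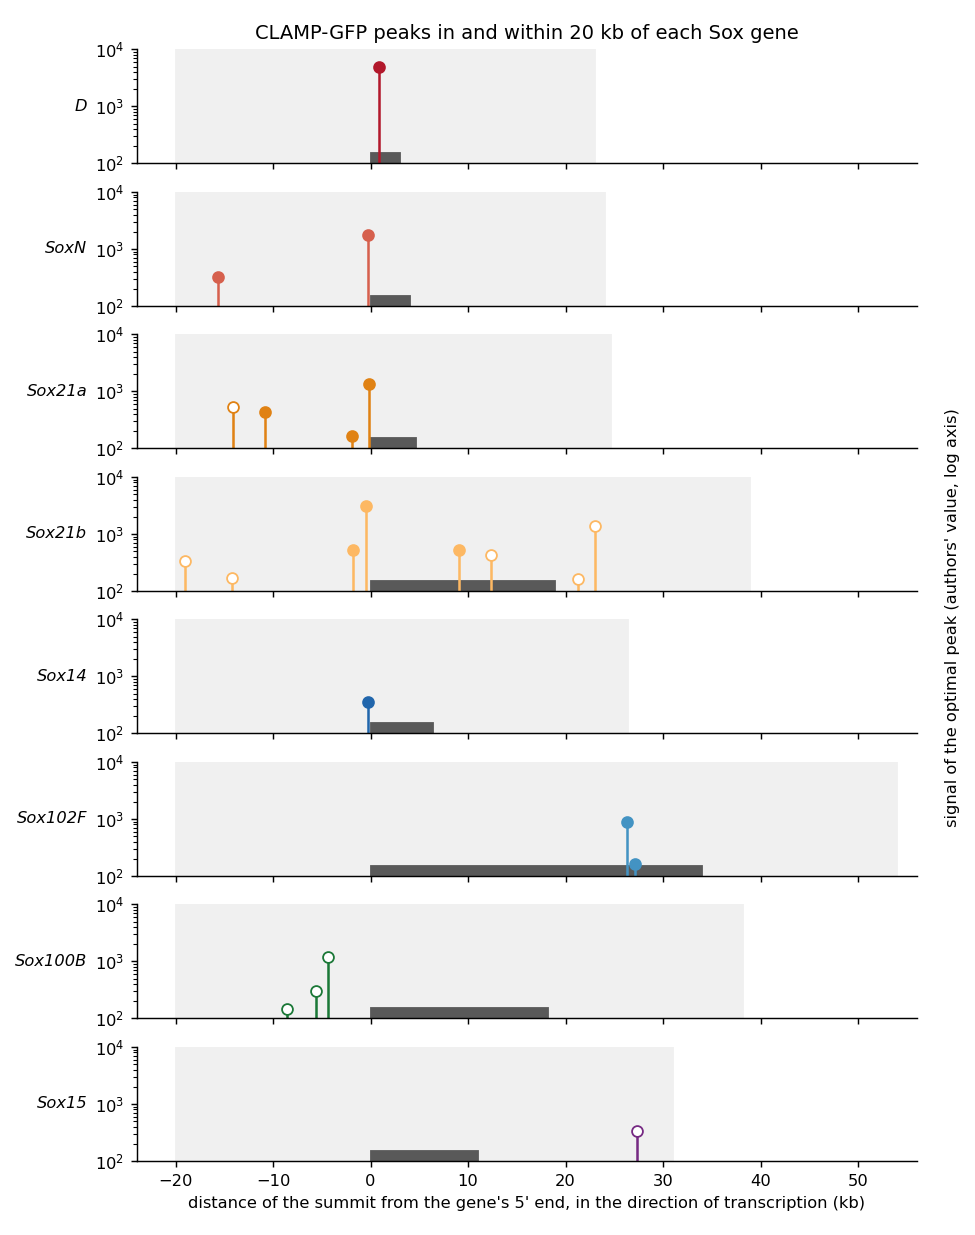
Summits of the optimal peaks in and within 20 kb of each Sox gene (horizontal axis, kb from the gene's 5′ end in the direction of transcription) and their signal (vertical, log axis, the authors' value); dark bars are genes, grey areas are windows, and filled points are peaks whose nearest TSS belongs to that gene. Filled points stand at the 5′ end of the 4 group B genes and of Sox14, and inside Sox102F, while Sox100B and Sox15 have open points only.

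D, also called Dichaete, acts in segmentation and in the embryonic nervous system, and it had the strongest peak of the family. The single peak in its window (3L:14177497-14177998, gene FBgn0000411 on the minus strand) had a signal of 4878, rank 17 of the 3077 optimal peaks. In the replicate lists, which hold 30000 regions each with background regions included, the same site had a signal of 3705 (rank 18) in replicate 4 and of 1145 (rank 22) in replicate 2. The 2 replicates thus placed it almost equally high. Its summit, 3L:14177701, lay in the 5′ UTR of D, 164 bp upstream of the inner TSS and 919 bp downstream of the outer one. Only 0.359% of protein-coding genes had as strong a peak in their window. In each case 5 motifs were searched on both strands within 100 bp of the summit: the GA repeat GAGAGA, the Sox cores ACAAT and also ACAAAG, the Zelda site CAGGTA, and the POU octamer ATGCAAAT. The D summit held the letters of all but the octamer. GAGAGA overlaps the GA runs, of which it is a part.

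By number of peaks and strongest signal, the genes most like D were nan, AlkB and ArgRS. The mechanosensory channel gene nan, a neighbour of D, had the same peak in its window. AlkB and ArgRS, 2 of several equal genes on the X, shared 1 peak with a signal of 5072 (rank 16), whose nearest TSS was that of the G protein subunit gene Gbeta13F. This likeness rests on the optimal list alone.

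**Figure D2:**
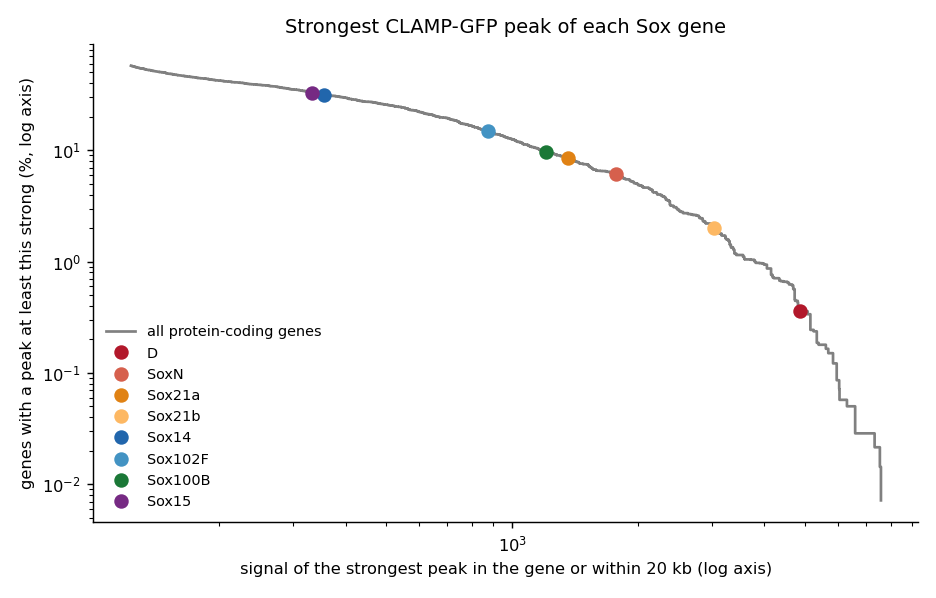
Share of all protein-coding genes (vertical, percent, log axis) whose strongest peak in the gene or within 20 kb has at least the signal on the horizontal axis (log axis); points are the 8 Sox genes. D stands at 0.359%, the other group B genes between 2.02% and 8.48%, and Sox14 and Sox15 at 31.6% and 32.9%.

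SoxN, or SoxNeuro, is needed for neuroblast formation in the neuroectoderm, and its main peak lay directly upstream. That peak (summit 2L:8825402, 243 bp upstream of the TSS of FBgn0029123) had a signal of 1774 and rank 190. Replicate 4 gave it 1297 (rank 190) and replicate 2 gave it 476 (rank 195), so its place was nearly the same in both. A peak at least this strong was present in the windows of 6.16% of protein-coding genes. A weaker intergenic peak, 15643 bp upstream at 2L:8810002, had a signal of 325 (rank 1306), with 229.55 (rank 1149) in replicate 4 and 82.8 (rank 1887) in replicate 2. Within 100 bp of its summit it held ACAAAG, a sequence bound by Sox proteins, and CAGGTA, the site of the early embryonic activator Zelda. Over all optimal peaks, these letters occurred at 13.0% and 4.74%. The promoter-proximal summit of SoxN held none of the 5 motifs searched.

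Sox21b is a group B gene that lies between Sox21a and D on the same strand, and it had the most peaks of the family. Its window of 58920 bp held 8 peaks, a number reached by 0.882% of protein-coding genes, and 4 of them were also in the window of Sox21a. Only those at 3L:14122223, 3L:14131824 and 3L:14133149 had the TSS of Sox21b as their nearest. All others of the 8 were nearest to the TSS of Sox21a or of lncRNA:CR45887. The strongest (summit 3L:14131824, 500 bp upstream of the outer TSS of FBgn0042630) had a signal of 3026 and rank 83, with 2129 (rank 88) in replicate 4 and 904 (rank 59) in replicate 2. It was thus high in both lists. A second upstream peak, 1825 bp from the TSS at 3L:14133149, had a signal of 519 (rank 852), with 259 (rank 1028) in replicate 4 and 247 (rank 539) in replicate 2. Inside the gene, an intronic peak at 3L:14122223 had a signal of 528 (rank 834), with 382 (rank 758) in replicate 4 and 144 (rank 1091) in replicate 2. A further intronic peak at 3L:14118949 had a signal of 427 (rank 1007), with 287 (rank 938) in replicate 4 and 125 (rank 1276) in replicate 2. Both intronic sites were therefore present in each replicate, well below the promoter peak.

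The last 2 peaks of the Sox21b window were found in replicate 2 only. They lay 14208 and 19020 bp upstream, at 3L:14145532 and 3L:14150344, nearest to the TSS of lncRNA:CR45887. Both held ACAAT within 100 bp, letters that occurred at 8 of the 18 Sox peaks and at 27.5% of all optimal peaks. The signals of these 2 peaks were 168 (rank 2229) and 339 (rank 1246). In replicate 2 these sites had signals of 88.9 (rank 1761) and 129 (rank 1228), and the replicate 4 list had no summit within 200 bp of either. The second of them lay just inside the window edge of Sox21b, 19.0 kb from the gene, and was the first peak outside the window of D, at 25.3 kb. The Sox21b promoter peak itself fell 23.7 kb from Sox21a and so outside that gene's window.

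Sox21a, known for its role in the differentiation of intestinal stem cells, had its strongest peak 202 bp upstream of its TSS. This peak (summit 3L:14108320, gene FBgn0036411) had a signal of 1362 and rank 271, with 982 (rank 268) in replicate 4 and 381 (rank 285) in replicate 2. It was the peak with the run of 24 bp. A weak intergenic peak 1947 bp upstream, at 3L:14110065, had a signal of 165 (rank 2276), with 131 (rank 1786) in replicate 4 and 26.1 (rank 7142) in replicate 2. This site was thus much further down the list of replicate 2. With the 2 intronic peaks of Sox21b, the window of Sox21a held 4 peaks, and 9.18% of protein-coding genes had at least as many.

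The 3 genes Sox21a, Sox21b and D lie in this order along 75.1 kb of 3L, from 14103481 to 14178620, and 9 optimal peaks fell in that interval. The density there was 120 per Mb (54.8 to 227, exact 95% Poisson bounds), against 20.1 per Mb for the 564 peaks of 3L as a whole. The interval was chosen after the positions of the peaks had been seen, so the difference is a description. Of the 9 peaks, 4 lay in the 44.3 kb between Sox21b and D. Among its 3077 strongest, the replicate 2 list also had a region between Sox21b and D, 25.4 kb from the 5′ end of D (signal 107, rank 1495), and one outside the interval, upstream of D in the 5′ UTR of nuf (signal 126, rank 1258). Neither matched an optimal peak.

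**Figure D3:**
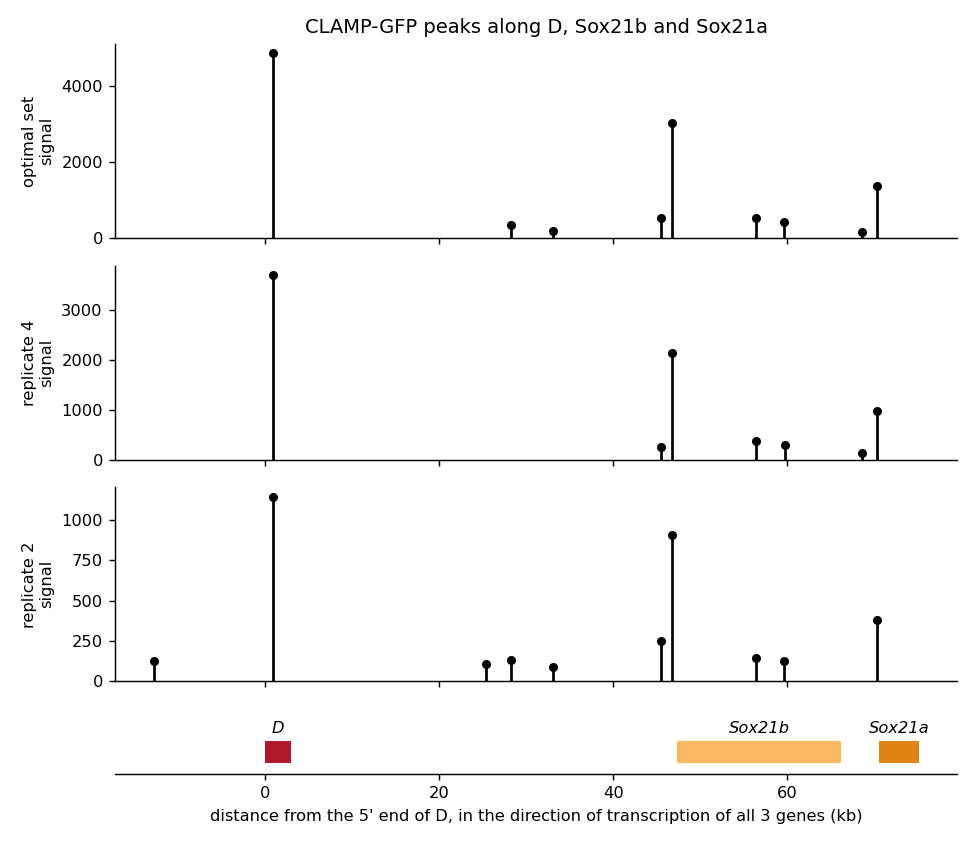
Peak summits along D, Sox21b and Sox21a (horizontal axis, kb from the 5′ end of D in the direction of transcription of all 3 genes) with their signal (vertical, linear, own scale per list) in the optimal set and among the 3077 strongest regions of replicate 4 and of replicate 2. The promoter peaks of D, Sox21b and Sox21a are tallest in all 3 lists, and the peaks between 28 and 33 kb are absent from replicate 4.

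Sox14, a group C gene induced by the steroid hormone ecdysone and known for the pruning of neurons at metamorphosis, had 1 peak. Its summit, 2R:23978549, lay 252 bp upstream of the outermost TSS of FBgn0005612. The signal was 355 (rank 1183), with 283 (rank 952) in replicate 4, and the replicate 2 list had no summit within 200 bp. The Sox14 promoter peak was therefore present in 1 of the 2 replicate lists only. A peak as strong was present in the windows of 31.6% of protein-coding genes, and none of the 5 motifs occurred within 100 bp of the summit.

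Sox102F, the group D gene, lies on chromosome 4, and both of its peaks were missing from replicate 4. The stronger one, in an intron at 4:808042 and 695 bp upstream of an inner TSS of FBgn0039938, had a signal of 874 (rank 483) and 347 (rank 332) in replicate 2. The weaker one, in the 5′ UTR at 4:807274, had a signal of 161 (rank 2316) and 40.1 (rank 3483) in replicate 2, whose summit was 166 bp away. Matching summits were thus found in replicate 2 alone. The whole replicate 4 list had 3 regions on chromosome 4, none of them among its 3077 strongest, against 326 and 13 in replicate 2. Those 3 all lay in the Sox102F window, but none had its summit within 200 bp of either peak. The part of this gap in the Sox102F result was not tested. The next optimal peak beyond the window was 155 kb away, at toy, with a signal of 2169.

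Sox100B, the group E gene, which acts in gonad development, had 3 peaks in its window, and none was closest to its own TSS. All lay upstream, in the neighbouring gene dco, which encodes a casein kinase of the circadian clock. The strongest (summit 3R:31060881, in the 5′ UTR of dco, 108 bp from a dco TSS and 4372 bp from Sox100B, FBgn0024288) had a signal of 1207 and rank 317. Replicate 4 gave it 843 (rank 321) and replicate 2 gave it 358 (rank 320), again nearly the same place. The dco intron peak at 3R:31059675 had a signal of 302 (rank 1394), with 185 (rank 1376) in replicate 4 and 112 (rank 1424) in replicate 2. It held the run of 18 bp. The third peak, in a coding exon of dco at 3R:31056717 and 2802 bp from the TSS of Chchd3, had a signal of 149 (rank 2499), with 114 (rank 2059) in replicate 4 and 16.1 (rank 27845) in replicate 2, which is near the end of that list.

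Sox15, the group F gene, with known functions in the wing disc and in sensory bristles, had 1 peak in its window, and this peak belonged by position to Sdb. The summit, 2R:14185119, lay 85 bp from the TSS of Sdb and 16271 bp from the gene body of Sox15 (FBgn0005613). Its signal was 333 (rank 1267), with 278 (rank 973) in replicate 4 and 53.9 (rank 2702) in replicate 2. Sox15 had the lowest strongest signal of the 8 genes, and a peak as strong was present in the windows of 32.9% of protein-coding genes.

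Set side by side, the 4 group B genes had 11 of the 18 peaks, and the 4 genes of groups C to F had 7. All 4 group B genes had a strongest peak among the 300 of highest signal, with ranks between 17 and 271. No gene of groups C to F did, with ranks between 317 and 1267. The cutoff of 300 falls in the small gap between Sox21a at rank 271 and Sox100B at rank 317, so this split depends on it. A peak as strong as that of Sox21a was present in the windows of 8.48% of protein-coding genes, and one as strong as that of Sox100B in 9.70%. A Sox gene had the nearest TSS for 9 of the 11 group B peaks and for 3 of the 7 others. Peak density was 71.0 per Mb of group B windows and 30.5 per Mb of the other windows. Of the 11 group B peaks, 9 lay in the interval of Sox21a, Sox21b and D on 3L. The other windows include that of Sox102F on chromosome 4, where the replicate 4 list had only 3 regions. With 4 genes on each side, of which 3 adjoin on 3L, no test of the difference between the groups was made.

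Across the 18 peaks, the median signal was 391, against 273 for all optimal peaks, and 14 (77.8%, exact binomial 95% interval 52.4 to 93.6) were among the 1538 strongest of the 3077. With windows of 5 kb the median was 701, over 12 peaks. By place, 10 summits were intergenic, 4 intronic, 3 in a 5′ UTR and 1 in a coding exon. A summit within 500 bp of any TSS was found for 8 peaks (44.4%), against 35.3% of all peaks. Of the 7 summits within 1 kb of a Sox TSS that was also their nearest, 6 lay upstream of it. Among all peaks, 53.6% of the 1559 such summits did. The 6 include the D summit and the Sox102F intron summit, which lay upstream of an inner TSS only and thus inside the gene.

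Matched summits in both full replicate lists, background included, were found for 13 of the 18 peaks (72.2%, exact binomial 95% interval 46.5 to 90.3), against 79.9% of all optimal peaks. With only the 3077 strongest regions of each replicate list, 11 of the 18 were matched in both, and the share over all peaks is not given here. The 4 Sox peaks missing from the full replicate 4 list (22.2%, against 14.6% of all peaks) were the 2 of Sox102F and the 2 distal ones of Sox21b. Their GC content within 100 bp of the summit was 43.8 to 54.7%, against a median of 48.8% for all peaks missing from replicate 4 and 51.7% for those in both lists. The Sox14 peak, the only Sox peak missing from replicate 2 (5.56%, against 6.08%), had 45.8% GC, below the median of 58.2% for all peaks missing from that replicate. Whether base composition had a part in these absences was not tested.

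**Figure D4:**
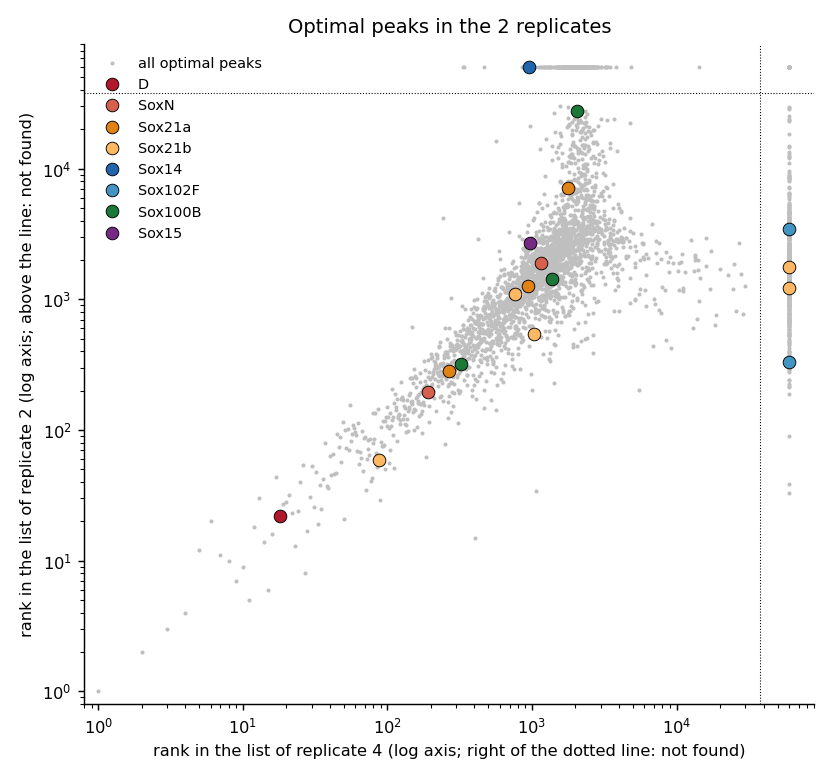
Rank of each optimal peak in the list of replicate 4 (horizontal, log axis) and of replicate 2 (vertical, log axis), grey for all 3077 peaks and coloured for the 18 Sox peaks; points beyond the dotted lines have no summit within 200 bp in that list. The promoter peaks of D, SoxN, Sox21a and Sox21b lie close to the diagonal, and 4 Sox peaks stand beyond the line for replicate 4 and 1 beyond that for replicate 2.

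A GA run of at least 8 bp lay within 100 bp of 3 of the 18 summits (16.7%, exact binomial 95% interval 3.58 to 41.4), against 34.4% of all optimal peaks. The 3 were those of Sox21a, Sox102F and the dco intron. The letters GAGAGA on either strand occurred at 6 summits (33.3%), against 48.8% of all. ACAAT occurred at 8 (44.4%, 21.5 to 69.2), against 27.5%, and ACAAAG at 4 (22.2%), against 13.0%; these are short cores bound by Sox proteins. CAGGTA occurred at 2 (11.1%), against 4.74%, and ATGCAAAT, the octamer bound by POU factors, at 0 of 18, against 1.43%. The intervals of the GA run and ACAAT shares include the values of all peaks. Each match shows only that these letters are present.

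**Figure D5:**
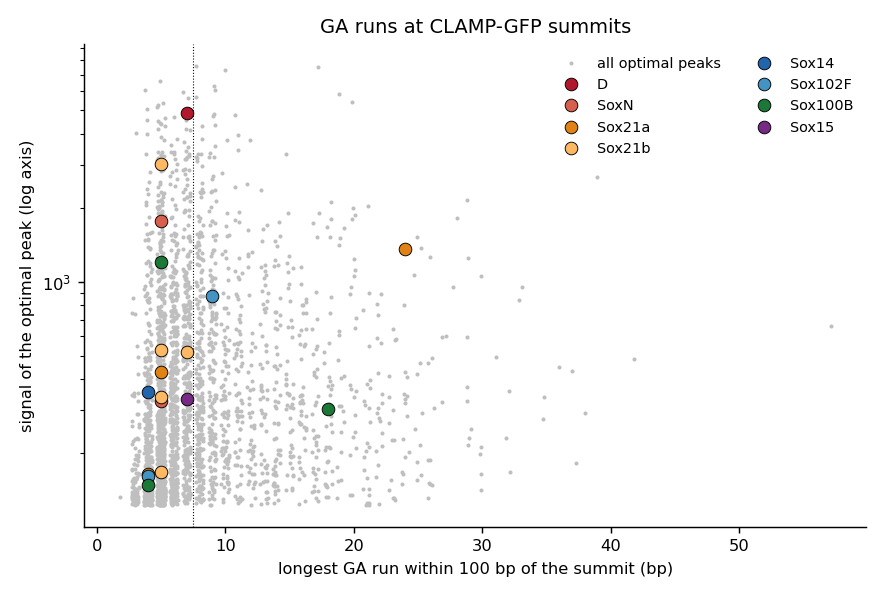
Longest GA run within 100 bp of the summit (horizontal, bp) and signal (vertical, log axis, the authors' value) of each optimal peak, grey for all 3077 and coloured for the 18 Sox peaks; grey points are spread sideways for visibility, and the dotted line separates runs of 8 bp or more. The strongest Sox peaks, at D, Sox21b and SoxN, stand left of the line, and 3 Sox peaks stand right of it, at 9, 18 and 24 bp.

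For comparison, 2 lists of other genes were surveyed in the same way. Both were chosen with earlier results of these data known, so their shares are descriptions only. Of 12 HMG-box genes outside the Sox family, 7 (58.3%) had a peak in the window, against 57.5% of all coding genes, and 4 (33.3%), cic, bbx, HmgD and HmgZ, had one within 1 kb of a TSS, against 10.2%. HmgD and HmgZ, neighbouring genes for chromatin architectural proteins, shared their strongest peak (1924, rank 165), and the repressor gene cic had one of 766 (rank 566). No optimal peak was present at pan, Dsp1, tHMG1, tHMG2 or polybromo. Of these, pan lies on chromosome 4, where the replicate 4 list had only the 3 regions named at Sox102F. Of 26 genes that act beside the group B Sox genes in the neuroectoderm and neuroblasts, 21 (80.8%) had a peak in the window and 15 (57.7%) had one within 1 kb of a TSS, against 57.5% and 10.2% of all coding genes. The strongest were at Dr, a homeobox gene of the dorsal neuroectoderm (3238, rank 66), at vvl, which encodes a POU-domain factor (2801, rank 94), and near insc, a gene of asymmetric neuroblast division (1588, rank 215, nearest to the TSS of sktl). The genes ac, wor, dpn, Kr and comm had none. Median gene length was 6.15 kb for the HMG-box list and 5.81 kb for the neural list, against 2.17 kb over all coding genes.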

How the data were processed

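ChIP-seq peak lists of 2 biological replicates (numbers 4 and 2) were analysed. Per the deposited text files, a list per replicate, a pooled list and an optimal set were made for dm6 and dm3; the 4 dm6 lists were used. For the aligner, caller and reproducibility threshold, nothing is given in the sources used here. In each list the signal is the authors' value per peak, as deposited, with no statement of any scaling to depth. Peak lists carry no read totals, so depth is unknown and precision rests on numbers of sites.

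Summits were the start plus the summit offset. Genes, places and TSSs came from the BDGP annotation 6.54 (Ensembl release 115) and sequences from the RefSeq Release 6 genome. A peak counted as found in a replicate when any region of that list, background included, had its summit within 200 bp. GA runs (8 bp or more) and motifs were searched on both strands within 100 bp of summits. Intervals are exact 95% intervals. The members and lists were chosen with earlier results of these data known. The genes named are all members, the nearest gene of each peak, the 3 strongest of each list and the 3 genes most like D; other list members are named where they complete a count, after their values were seen, and nuf and toy likewise. Alternatives were each replicate alone, the stronger peaks by signal, other windows, distances, overlaps and run lengths. The counting steps were tested on simulated peaks. Python 3.11.15, numpy 2.4.6, pandas 2.3.3 and scipy 1.17.1 were used.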

Additional observations from a re-analysis of the deposited data

How the results depend on the processing

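Of 61 alternative values over 9 results, 56 stayed within the limits set for a change: 1.5 times for counts, and the exact 95% interval for density (27.8 to 74.0 per Mb) and for the median signal (302 to 1207). These limits are wide, so staying within them shows little. The number of Sox peaks fell from 18 to 12 with 5 kb windows, and also when only summits nearest to a Sox gene's own TSS counted. Both falls were within the limits. The median signal of Sox peaks was 391 in the optimal set, and 129 to 283 in the strongest 3077 regions of 1 replicate alone, each on that list's own scale. These replicate medians count among the 5 values outside the limits, but limits from the optimal set cannot judge values on another scale. With 5 kb windows the median in the optimal set was 701, inside the wide interval of 302 to 1207 but over 1.5 times higher. Density was 46.8 per Mb with 20 kb windows and 25.4 with 50 kb windows, which added 1 peak only, for 19. Counting only summits nearest to a gene's own TSS left 4 of the 12 other HMG-box genes, against 7, and 6 of the 8 Sox genes. Runs of at least 6 bp lay at 6 Sox peaks, against 3 with 8 bp, while 58.1% of all peaks had one. Among the 3077 strongest regions of either replicate alone, 7 of the 8 Sox genes had a peak in the window. Within 1 kb of a TSS, 5 had one. Among those strongest regions, replicate 4 lacked the peaks of Sox102F and replicate 2 that of Sox14. For these lists, and for the nearest-TSS rule above, the share of all coding genes was not computed. Whether the Sox genes stayed above that share is therefore not known. In the full lists, background included, each window held regions in both replicates. With 30000 regions per list this carries little weight, and the share over all genes was not computed. No paired analysis was possible because there was 1 group and no test. Read depth, unknown here, limits what the absence of a peak can show.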
